A study of Mus musculus with 6 samples.

Results

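The miR-7 family of the mouse is a small group of microRNAs (miRNAs) made from 3 hairpins, Mir7-1, Mir7-2 and Mir7b, and its levels were followed here in cultured macrophages with and without apolipoprotein E (ApoE). The family was defined by name as 5 mature arms, of which 2 are guide arms (mmu-miR-7a-5p and mmu-miR-7b-5p) and 3 are passenger arms (mmu-miR-7a-1-3p, mmu-miR-7a-2-3p and mmu-miR-7b-3p). The species prefix mmu is left out from here on. Of the 911 mature miRNA references with reads in any library, 3 were members of the family, and miR-7a-2-3p and miR-7b-3p were listed in no library. The names did not rest on a measured value, but the family was singled out with the levels and the genotype differences of these libraries already known, so its level and its place in the comparison are descriptions.

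Bone-marrow-derived macrophages are grown from marrow cells with macrophage colony-stimulating factor (M-CSF). The libraries came from ApoE-knockout (EKO) and wild-type (WT) male mice of 6 to 12 weeks, 3 biological replicates of each, and the comparison asked which miRNAs differ when ApoE, a lipid-transport protein that macrophages secrete, is missing. Cells of both genotypes had 25 ng/mL M-CSF every 2 days over 6 days in DMEM with 10% serum, so no group stands for cells without M-CSF. The sources used here do not give the strain of the mice or say whether marrow of several animals was pooled. Apoe mRNA is not counted in small RNA libraries, so no value here checks the genotype. Each library held 34651516 to 41331600 reads on mature miRNAs. Markers of macrophages and other blood cells were led by miR-21a-5p, with the summed level of 8 myeloid miRNAs at 143031 to 171234 CPM in EKO and 215757 to 228584 CPM in WT, where CPM is the reads of a miRNA per 1000000 reads on mature miRNAs. Nearly all of that sum was miR-21a-5p, so it says little about the rest of the list and is no check of cell identity. The libraries are bulk samples, so fewer cells that hold a miRNA and less of it per cell cannot be told apart.

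As background, the miR-7 guide arm is best known from neuroendocrine tissue such as the pituitary, the pancreatic islets and the brain, where it holds down transcripts of growth factor and insulin signalling. Its amount is set by a circuit of noncoding RNAs. The circular RNA Cdr1as carries many miR-7 sites, miR-671-5p directs the slicing of Cdr1as, and the long noncoding RNA Cyrano pairs with miR-7 and leads to its destruction in the mouse brain. In human non-neural cells, proteins bound to the terminal loop of the miR-7 hairpin within the HNRNPK transcript hold back its processing. Of a miRNA hairpin, one arm is usually kept as the guide and the other, the passenger, is lost soon after the hairpin is opened.

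The mature arms are shown because a single base separates the 2 guide arms and because the passenger arms tell the hairpins apart. Sequences and positions are from RefSeq on the GRCm38.p6 build, 5′ to 3′, and the capitals mark the seed, bases 2 to 8, which leads the pairing with target transcripts.
miR-7a-5p: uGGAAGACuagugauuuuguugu
miR-7b-5p: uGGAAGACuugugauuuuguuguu
miR-7a-1-3p: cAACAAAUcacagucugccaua
miR-7a-2-3p: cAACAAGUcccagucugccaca
miR-7b-3p: cAACAAGUcacagccagccuca

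Both guide arms carry the same seed, and none of the other mature miRNAs among the 1679 of the reference table shares it. Counted from the 5′ end, they differ by A10U, outside the seed, and miR-7b-5p has 1 further base at its 3′ end. The passenger arms are less alike. From miR-7a-1-3p to miR-7a-2-3p there are 3 changes, A7G, A10C and U21C, and A7G lies in the seed. The passenger arms miR-7a-2-3p and miR-7b-3p share a seed with each other and not with miR-7a-1-3p.

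An identical miR-7a-5p comes from 2 places, chr13:58392841-58392863 on the minus strand (Mir7-1) and chr7:78888295-78888317 on the plus strand (Mir7-2). By GENCODE M21 on GRCm38, Mir7-1 lies inside Hnrnpk on the same strand, the gene of an RNA-binding protein of the nuclear ribonucleoprotein particles. It overlaps no exon of any Hnrnpk transcript and sits in the last intron of all 12 of the annotated transcripts that span it. Mir7-2 overlaps no other gene listed in GENCODE M21, and the nearest protein-coding gene, Aen, lies 7481 bp away. Mir7b is at chr17:56242988-56243098 on the plus strand, with its guide at chr17:56243017-56243040, and the nearest protein-coding gene, Fem1a, lies 13712 bp away. Between the 2 hairpins of miR-7a only the passenger arms differ, with miR-7a-1-3p at chr13:58392800-58392821 on the minus strand and miR-7a-2-3p at chr7:78888335-78888356 on the plus strand.

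The guide arm miR-7a-5p made up nearly the whole family and was among the most abundant miRNAs of these macrophages. It stood at 49587, 48842 and 44842 CPM in the EKO libraries, against 37804, 41513 and 37072 CPM in the WT libraries. All 3 EKO values lay above all 3 WT values. It averaged 47757 ± 2552 CPM in the EKO libraries, against 38796 ± 2381 CPM in the WT libraries (SD, n = 3 each), so that the EKO mean was 1.23-fold the WT mean. In the fit over all 575 miRNAs that passed the low-count filter, the log2 fold change was 0.33 ± 0.11 (SE; 95% interval 0.07 to 0.59), which did not pass the threshold of 0.05 (adjusted p = 0.138, unadjusted p = 0.0197, edgeR quasi-likelihood test). By that test 0 of 575 miRNAs (0.0%) were called, 48 (8.35%) were higher in EKO at an unadjusted p under 0.05, and DESeq2 called 92 of 564. For 68 miRNAs (11.8%) all EKO values lay above all WT values, as they did for miR-7a-5p and miR-7b-5p among the 3 members with reads.

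The call on miR-7a-5p depended on the tool and on the low-count filter. It passed with DESeq2 (log2 fold change 0.41, adjusted p = 0.0291) and in an edgeR fit of the 251 miRNAs with a mean of 10 CPM or more (0.36, adjusted p = 0.0440), where 43 of 564 (7.62%) and 27 of 251 (10.8%) miRNAs were called higher, and did not pass with limma-voom (adjusted p = 0.0697). Over the alternatives that kept all 6 libraries its adjusted p ran from 0.0291 to 0.187. With 1 library left out, its fold change stayed above 0 in all 6 fits and its adjusted p ran from 0.0820 to 0.395.

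**Figure D1:**
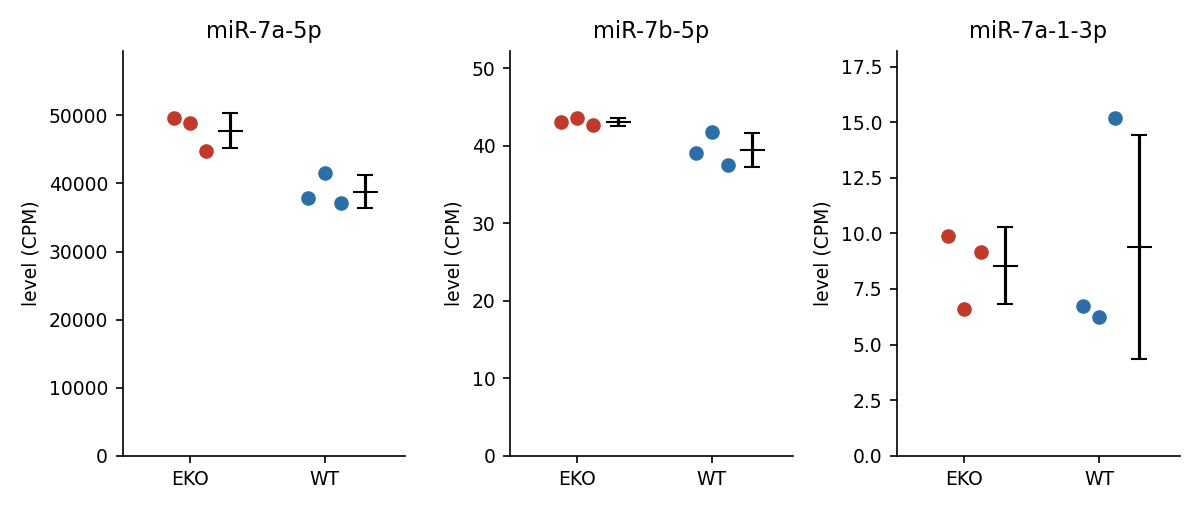
Level of the 3 members with reads, in CPM, in each EKO and WT library (dots), with the mean and SD of 3 libraries beside them (bars); each axis starts at 0. The EKO libraries sit above the WT libraries for miR-7a-5p and miR-7b-5p, while for miR-7a-1-3p the groups overlap and 1 WT library stands at 15.2 CPM.

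In order of level, miR-7a-5p followed let-7i-5p, miR-21a-5p, let-7f-5p and miR-148a-3p by the mean over all 6 libraries, and miR-222-3p came next. Its share of all mature reads was 4.96%, 4.88% and 4.48% in the EKO libraries and 3.78%, 4.15% and 3.71% in the WT libraries, with 95% Wilson intervals at most 0.0145 percentage points wide, which cover counting error only since PCR copies were not removed. It was the fifth most abundant miRNA in each EKO library and in WT replicate 2, and the sixth in WT replicates 1 and 3. In EKO its lowest value, 44842 CPM, stood clear of the highest value of its neighbour miR-222-3p, an oncogenic miRNA that targets the cell-cycle inhibitor p27, at 37597 CPM. In WT the pair overlapped, with miR-7a-5p at 37072 to 41513 CPM and miR-222-3p at 34971 to 38590 CPM. The spread of miR-7a-5p within a genotype was small, with an SD of 0.083 on the log2 scale against a median of 0.293 over 250 miRNAs averaging at least 10 CPM, 14 of which had a smaller one. Adapter ligation and amplification do not treat all sequences alike, so the order of different miRNAs in a library is not an order of molecules.

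**Figure D2:**
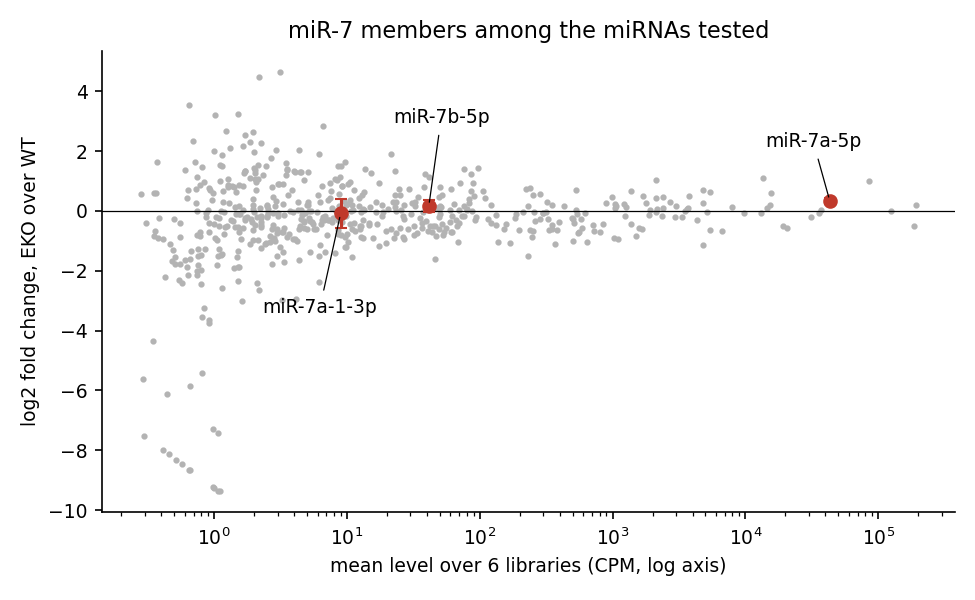
Log2 fold change, EKO over WT, of the 575 miRNAs tested (grey) against their mean level on a log axis in CPM, with the 3 members that have reads in red and bars of 1 SE (smaller than the symbol for miR-7a-5p). The value of miR-7a-5p, 0.33, lies at the high end of the levels, and miR-7b-5p and miR-7a-1-3p lie near 0.

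Among abundant miRNAs the difference was not exceptional in size. Of the 56 other miRNAs averaging at least 1000 CPM, 11 had a larger log2 fold change than miR-7a-5p, and their median was 0.05 (interquartile range -0.21 to 0.24). By base composition miR-7a-5p stood apart from most like miRNAs. With 8 G or C bases among 23, its GC content was 34.8%, and 29 other miRNAs averaging at least 10 CPM were within 5 percentage points of it. Their median log2 fold change was -0.45 (interquartile range -0.64 to -0.02), 7 of the 29 were above 0, miR-7b-5p among them, and 2 were above miR-7a-5p. Over all 251 miRNAs at that level the median was -0.06. Of these, 216 had a reference sequence, and only they could enter the window. The window was chosen with a relation of fold change to GC content in these libraries already known, and the part that base composition has in the difference was not tested.

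**Figure D3:**
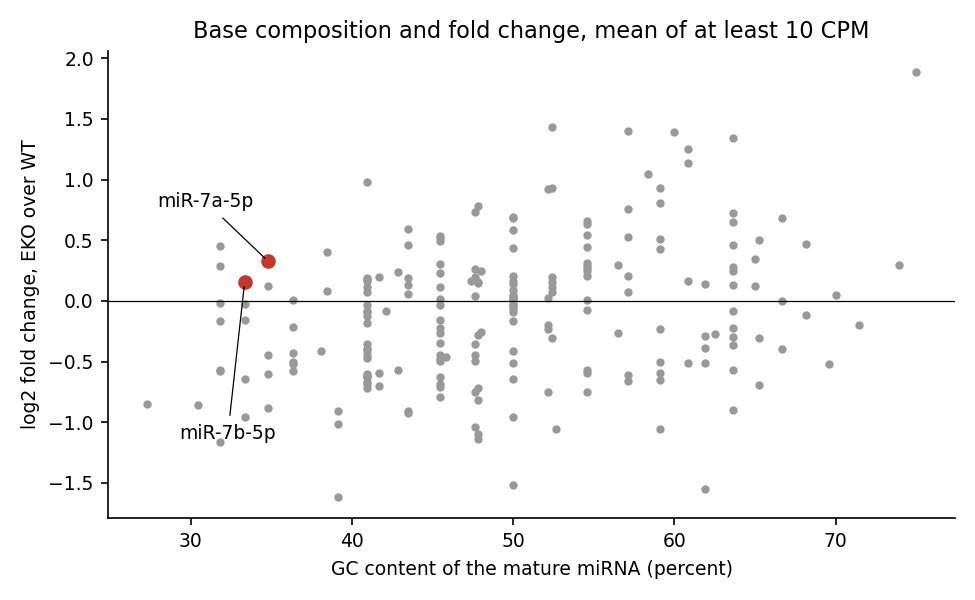
Log2 fold change, EKO over WT, against the GC content of the mature miRNA in percent, for miRNAs averaging at least 10 CPM that have a reference sequence (grey), with the 2 guide arms of miR-7 in red. At the low-GC end most values lie below 0, and miR-7a-5p (0.33) and miR-7b-5p (0.15) lie above it.

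The other guide arm, miR-7b-5p, was 1048-fold less abundant by the mean over the libraries. It stood at 43.1, 43.6 and 42.6 CPM in the EKO libraries, against 39.0, 41.8 and 37.6 CPM in the WT libraries. The groups did not overlap, but the lowest EKO value, 42.6 CPM, was close to the highest WT value, 41.8 CPM. The means were 43.1 ± 0.46 CPM in EKO and 39.5 ± 2.16 CPM in WT (SD, n = 3 each), and the log2 fold change of 0.15 ± 0.20 (SE; 95% interval -0.31 to 0.61) did not pass (adjusted p = 0.808, edgeR quasi-likelihood test). The interval holds a difference as large as that of miR-7a-5p, so this fit does not show that the 2 guide arms differ in their response. It does not compare the arms directly. Their shares within each library, given below without a test, did not overlap between the genotypes. Summed over its members, the family reached 47809 ± 2552 CPM in EKO and 38845 ± 2380 CPM in WT (SD, n = 3 each), nearly all of it miR-7a-5p.

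Because of the single base between them, the guide arms shared reads. The total and the divided counts showed 667, 711 and 529 reads in the EKO libraries and 580, 713 and 578 in the WT libraries that matched both arms and had been split evenly between them. These were 28.7% to 36.5% of the total reads of miR-7b-5p, and 0.0318% to 0.0415% of those of miR-7a-5p. The reads that matched miR-7b-5p alone numbered 1159, 1367 and 1317 in EKO and 1211, 1373 and 1249 in WT. On these alone the log2 fold change was 0.15 ± 0.21 (SE, adjusted p = 0.822, edgeR), a value computed after the shared reads had been seen.

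The share of miR-7b-5p among the guide-arm reads was 0.0868%, 0.0891% and 0.0950% in the EKO libraries, against 0.103%, 0.101% and 0.101% in the WT libraries. All EKO shares lay below all WT shares, with means of 0.0903% ± 0.0042 in EKO, against 0.102% ± 0.0013 for WT (SD, n = 3 each). The 95% Wilson intervals of EKO replicates 1 and 2, with upper bounds of 0.0913% and 0.0934%, lay clear of the 3 WT intervals, whose lower bounds were 0.0981%, 0.0961% and 0.0964%, while that of EKO replicate 3, 0.0905% to 0.0998%, overlapped them. Such intervals treat each read as independent, although PCR copies were not removed. They do not measure the spread between replicates, so they are no test of the genotypes. On reads that matched 1 arm alone the shares were 0.0674%, 0.0708% and 0.0791% in EKO and 0.0833%, 0.0800% and 0.0823% in WT. These did not overlap either, though 0.0791% in EKO was close to 0.0800% in WT. Such reads are most of those counted above, so this is not an independent result. The number of miR-7b-5p reads is low enough beside miR-7a-5p that misread copies of miR-7a-5p could be counted in it, and the counts do not tell such copies from miR-7b-5p; their part was not tested. Among the reference sequences, 10 pairs of miRNAs had 1 substitution between them and a more abundant member of at least 1000 CPM. By the lesser member's level as a percent of the greater, miR-7b-5p beside miR-7a-5p, at 0.0954%, was the second lowest of the 10, after miR-10b-5p beside miR-10a-5p at 0.0693%, and miR-100-5p beside miR-99a-5p came next at 0.527%. Of the 56 other miRNAs averaging at least 1000 CPM, 49 had a reference sequence. Pairs with a miRNA that lacks one, such as miR-30d-5p at 35657 CPM, are missing from the 10.

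**Figure D4:**
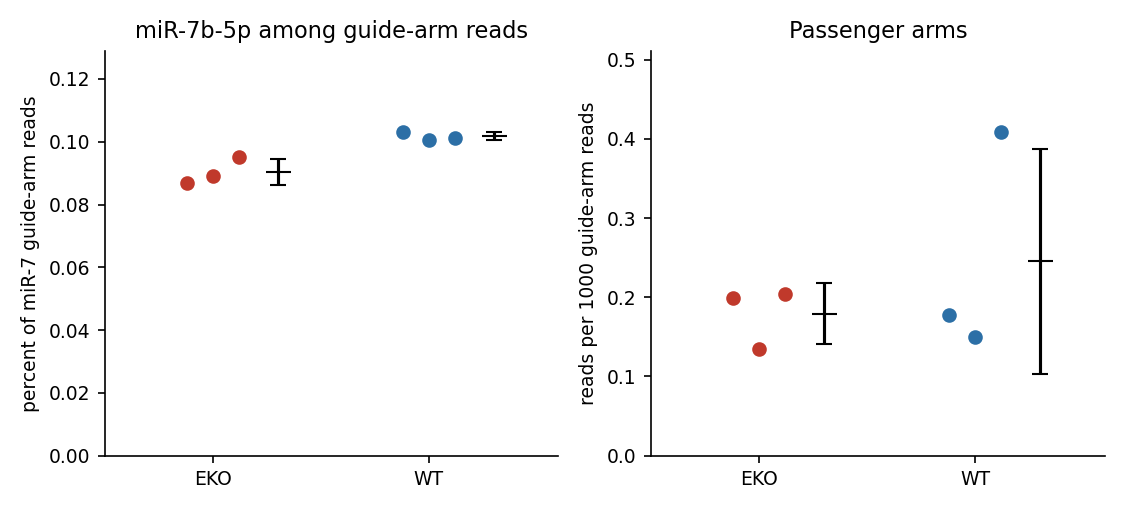
Left, miR-7b-5p as a percent of all miR-7 guide-arm reads; right, passenger-arm reads per 1000 guide-arm reads, in each EKO and WT library (dots) with mean and SD of 3 libraries (bars). The EKO shares of miR-7b-5p (0.0868% to 0.0950%) lie below the WT shares (0.101% to 0.103%), and the passenger ratio overlaps, with 1 WT library at 0.409.

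Of the passenger arms, only that of the Hnrnpk intron had reads. The passenger miR-7a-1-3p had 343, 260 and 340 reads in the EKO libraries, against 258, 258 and 621 reads in the WT libraries. In CPM it stood at 9.90, 6.58 and 9.17 in EKO and at 6.71, 6.24 and 15.2 in WT. WT replicate 3 was the highest of all, and the other WT libraries lay within or just below the EKO range. The means were 8.55 ± 1.75 CPM in EKO and 9.38 ± 5.03 CPM in WT (SD, n = 3 each), with a log2 fold change of -0.08 ± 0.49 (SE; 95% interval -1.22 to 1.05, adjusted p = 0.980, edgeR quasi-likelihood test). Without WT replicate 3 the WT mean was 6.48 CPM and the log2 fold change 0.42 (adjusted p = 0.931), and the sign also turned without EKO replicate 2 (0.10) and with DESeq2 size factors (0.0036), so that no direction is given for this arm. These reads rest on few distinct sequences, 6, 9 and 16 in EKO and 9, 15 and 29 in WT, where miR-7a-5p had 1173 to 1482. WT replicate 3 had both the most reads and the most distinct sequences of miR-7a-1-3p.

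The passenger of the chromosome 7 hairpin, miR-7a-2-3p, had 0 reads in each library, which allows up to 3 reads, or 0.0726 to 0.0866 CPM, by counting error alone. The level of miR-7a-1-3p was thus at least 86-fold higher in every library, with that floor of 3 reads taken per library, and at least 207-fold in WT replicate 3. All miR-7a-1-3p reads matched that reference alone. This was so in both genotypes, as miR-7a-1-3p took 100% of the passenger reads in every library. How well each passenger arm survives, ligates and amplifies can differ with its sequence, so the ratio of passenger arms is not a measured ratio of hairpins. For the third hairpin the data say less. The passenger miR-7b-3p also had 0 reads, but at the arm ratio of miR-7a each library would have held 0.232 to 0.630 reads of it, so its presence was not detectable at this depth.

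The passenger arm was scarce beside the guide arms. There were 0.199, 0.135 and 0.204 passenger reads per 1000 guide-arm reads in the EKO libraries, against 0.177, 0.150 and 0.409 in the WT libraries. The groups overlapped, with means of 0.179 ± 0.0389 in EKO and 0.246 ± 0.142 for WT (SD, n = 3 each), and WT replicate 3 again stood apart. Over 39 other miRNA names with both arms listed and the greater arm at 1000 CPM or more, the median was 6.27 reads of the lesser arm per 1000 of the greater, and 7 names, let-7g and miR-21a among them, had a lower ratio than the 0.207 of the miR-7 family. Among the 10 of these names with a greater arm of at least 10000 CPM, the level class of miR-7a-5p, the median was 0.436 and 4 had a lower ratio than miR-7. Both arms had to carry the same name and an entry of their own. MiRNAs with numbered passenger arms, as miR-7a has, were thus left out, let-7f-5p and miR-92a-3p among them. The counts therefore do not cover every miRNA of these levels.

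The miRNA partner in the miR-7 circuit gave a mixed picture. The arm that slices Cdr1as, miR-671-5p, stood at 1.56, 11.9 and 18.3 CPM in the EKO libraries, against 8.12, 16.7 and 20.5 CPM in the WT libraries. The groups overlapped, and the log2 fold change of -0.52 ± 0.76 (SE) did not pass (adjusted p = 0.827, edgeR quasi-likelihood test). Its opposite arm miR-671-3p was more abundant, at 745, 634 and 558 CPM in EKO and 427, 458 and 345 CPM in WT. All EKO values of miR-671-3p lay above all WT values, with a log2 fold change of 0.68 ± 0.19 (SE) that did not pass either (adjusted p = 0.0850, edgeR). The 2 arms of miR-3529, placed on this list because its hairpin lies opposite Mir7-2 on the other strand, were listed in no library. Of the 4 miRNAs of this list, 2 were tested, 1 had a higher and 1 a lower value in EKO, and 0 were called; Cdr1as and Cyrano are not counted in these libraries.

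The other miRNAs of neuroendocrine and neuronal cells did not share the abundance of miR-7a-5p. Of 12 such miRNAs, miR-375-3p, the islet miRNA, and miR-124-3p, the neuronal miRNA, were listed in no library, as were miR-153-3p and miR-136-5p. The summed level of the list was 905 to 1271 CPM in EKO and 1099 to 1409 CPM in WT. It was carried by miR-182-5p, at 523 ± 84.7 CPM in EKO and 640 ± 78.8 CPM in WT, and by miR-183-5p of the same cluster, at 516 ± 99.3 CPM in EKO and 563 ± 77.6 CPM in WT (each SD over 3 libraries). The next by level were miR-129-5p, at 15.0 ± 4.82 CPM in EKO and 24.2 ± 5.29 CPM in WT, and miR-96-5p, at 10.7 ± 1.81 CPM in EKO and 20.5 ± 2.50 CPM in WT. Of the 7 members tested, 0 were called, 2 had an unadjusted p under 0.05, in opposite directions (123 of all 575, or 21.4%, did in either direction), and the median log2 fold change was -0.26, against -0.16 over all 575 miRNAs tested. The 2 were miR-96-5p, at a log2 fold change of -0.91 ± 0.33 (SE), and miR-184-3p, named after its values were seen, at 1.63 ± 0.56 (SE), with 14.5 ± 2.17 CPM in EKO, against 4.73 ± 2.54 CPM in WT (SD, n = 3 each) and no overlap between the groups. Their adjusted p-values by the edgeR quasi-likelihood test were 0.154 and 0.138 in that order.

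Of the lists that mark cells of the marrow, the myeloid, lymphoid and stromal lists had summed levels in EKO below those in WT, and the erythroid sums overlapped. The myeloid sum was nearly all miR-21a-5p, at 137628 to 164387 CPM in EKO and 209780 to 223096 CPM in WT. Of the 8 myeloid miRNAs, 6 were below 0 in log2 fold change and 2 above it, miR-223-5p (0.46) and miR-146a-5p (0.07). The median of the 8 was -0.56. The lymphoid list of 3 summed to 489 to 592 CPM in EKO and 684 to 801 CPM in WT, and the stromal list of 5 to 225 to 319 CPM in EKO and 468 to 583 CPM in WT. The lymphoid sum was nearly all miR-181a-5p and miR-181b-5p, and miR-150-5p averaged 3.63 CPM in EKO and 5.21 CPM in WT, with overlap. The stromal sum was carried by miR-143-3p and miR-140-5p. Of the 4 stromal members tested, 3 were below 0 in log2 fold change. The other, miR-214-3p, was above it (3.55), at means of 1.19 CPM in EKO and 0.104 CPM in WT. The erythroid list of 5, with miR-144-3p and miR-144-5p at 0, summed to 117 to 145 CPM in EKO and 127 to 160 CPM in WT. Nearly all of that sum was the entry that miR-486a-5p and miR-486b-5p share. In contrast, miR-451a stood at 5.92, 5.31 and 1.29 CPM in EKO and at 0, 0 and 0.587 CPM in WT, with no overlap. Its log2 fold change of 4.49 ± 2.03 (SE) did not pass (adjusted p = 0.260, edgeR quasi-likelihood test). The hepatocyte miRNA miR-122-5p stood at 101 to 154 CPM in EKO and 47.2 to 58.8 CPM in WT. By the edgeR quasi-likelihood test 0 members of these lists were called. At an unadjusted p under 0.05 there were 6 of 8 myeloid members, 1 of 3 lymphoid, 2 of 4 stromal and 0 of 2 erythroid entries tested (miR-486a-5p and miR-486b-5p share 1), and miR-122-5p, beside the 21.4% of all 575 given above. Their part in the level of miR-7a-5p was not tested.

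The profiles most like that of miR-7a-5p across the 6 libraries were named by the root mean square difference of log2(CPM + 1), each profile centred on its own mean, among 250 other miRNAs averaging at least 10 CPM, where the median difference was 0.41. The nearest was miR-361-3p at 0.064, followed by miR-139-5p at 0.083, let-7i-5p at 0.090 and miR-744-5p at 0.091. All 4 had their EKO values above their WT values, as 68 of 575 miRNAs (11.8%) did. Choosing them by nearness to miR-7a-5p over the same libraries favours that order. For miR-361-3p the levels were 963 ± 30.1 CPM in EKO and 824 ± 78.1 CPM in WT (SD, n = 3 each). The sister arm miR-7b-5p was the sixth nearest, at 0.097. To miR-7b-5p the nearest were let-7i-5p at 0.034, miR-361-3p at 0.066 and miR-25-3p at 0.072, and miR-7a-5p was the twelfth. A flat profile with little spread is near to many others by this measure, and all levels of a library share its total.

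**Figure D5:**
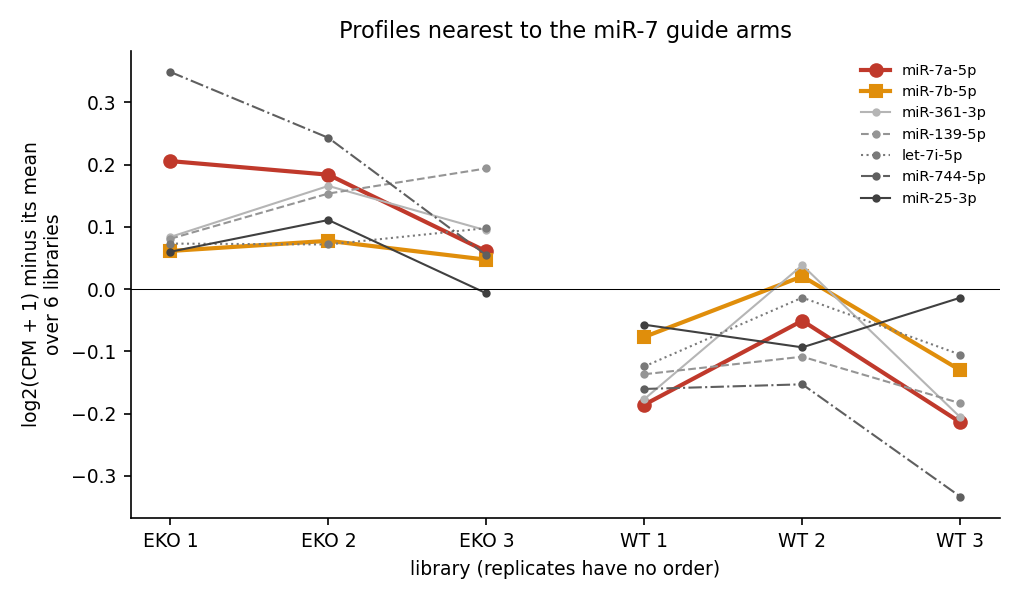
Log2(CPM + 1) of each miRNA minus its mean over the 6 libraries, by EKO and WT library, for the 2 guide arms of miR-7 (red and orange) and the 5 miRNAs nearest to them (grey). For miR-7a-5p, miR-744-5p, miR-139-5p and let-7i-5p the EKO libraries lie above 0 and the WT libraries below it, and miR-7b-5p keeps closer to 0 than miR-7a-5p.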

How the data were processed

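Per the file headers, each of 6 small RNA libraries had a table of distinct read sequences, total read counts, estimated counts (the authors divided reads that match several references) and a barcode count, another value in the deposited tables, which was 0 throughout. Per the labels' protocols, an NEB kit turned column-purified total RNA, which can lose small RNA, into libraries. The build was mm9, per the submitters' processing notes; no source used here names the aligner or counter. A missing reference was taken as 0, and stem-loop references were left out, none of them of miR-7.

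Estimated counts were rounded to whole numbers and tested with edgeR 4.0.16 in R 4.3.3 (TMM, filterByExpr, quasi-likelihood test on genotype, Benjamini-Hochberg adjustment over all miRNAs tested). Standard errors are the log2 fold change over the square root of F. Levels are plain CPM of the unrounded counts. Alternatives were DESeq2 1.42.0, limma-voom 3.58.1, other scalings and filters, total counts, a replicate block and each library left out. Shares, sums and likeness were given no test. Named were the members, the most abundant and most alike miRNAs, the circuit list and the 4 most abundant of the neuroendocrine list; miR-184-3p, miR-222-3p, the 1-base pairs and the names with few passenger reads were chosen after their values were seen. Members and lists were chosen with earlier results of these data known.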

Additional observations from a re-analysis of the deposited data

How the results depend on the processing

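The log2 fold change of miR-7a-5p was above 0 in each alternative, from 0.30 to 0.41 with all libraries, and it passed with DESeq2 (0.41), with a mean of at least 10 CPM (0.36) and with the replicate block (0.33, adjusted p = 0.0365); leaving out a library gave 0.26 to 0.43, with no pass. The log2 fold change of miR-7b-5p ran from 0.13 to 0.23, and from 0.10 to 0.25 with a library left out, with no pass. That of miR-7a-1-3p turned to 0.0033 with DESeq2 and 0.0036 with DESeq2 size factors, and ran from -0.28 to 0.42 with a library left out. The passenger ratio difference, EKO minus WT, of -0.0661 per 1000 became 0.0156 without WT replicate 3. The 0 calls over all miRNAs became 92 with DESeq2, 32 with limma-voom, 52 with no low-count filter, 43 with at least 10 reads in every library, 59 with a mean of at least 10 CPM and 62 with the replicate block, and ran from 0 to 45 with a library left out, with 45 without EKO replicate 3. The causes were not tested. The same-numbered libraries did not deviate together (correlations of -0.10, -0.04 and -0.02, none best with its own number), so the block rests on a shared number only. The nearest miRNAs to each guide arm were the same with TMM-scaled CPM, 4 of 4 and 3 of 3. The passengers without reads could not be fitted.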
